A study of Mus musculus with 8 samples.

Results

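The 8 genes described here serve the iron economy of the mitochondrion: the iron carriers Slc25a37 and Slc25a28, the haem synthesis enzymes Alas1, Cpox, Ppox and Fech, and the iron-sulphur cluster proteins Nfs1 and Iscu. They were taken by name, and each was found as 1 probe set whose number is the gene's Entrez number, so 8 of 24011 measured genes are members. Total RNA came from primary mouse macrophages grown out of bone marrow of wild-type animals aged 8 to 10 weeks, in medium conditioned by L cells that supplies the growth factor M-CSF. In one group of 4 samples, named Hepcidin, the peptide hormone hepcidin was present at 10 µg/ml for 1 h before lysis, and the other 4 received PBS. All 8 samples share the wild-type origin and the M-CSF medium. Each was run on 1 Affymetrix whole-transcript array. The titles number the samples 1 to 4 in both groups without saying whether a number is an animal, a culture or a day, so p-values measure the spread between these samples only, which may be technical. The strain is not given in the sources used here.

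Iron that reaches the mitochondrial matrix is carried over the inner membrane by the mitoferrins. In the matrix ferrochelatase places it into protoporphyrin to make haem, or the cysteine desulfurase and its scaffold protein build it into iron-sulphur clusters, the cofactors of aconitase and of the respiratory chain. Hepcidin acts on the iron exporter ferroportin at the cell surface, and the study's title names it as a regulator of inflammation. Comparing hepcidin with PBS asks, for these genes, whether their mRNA had moved within 1 h.

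No member passed the test, and no member had groups that stood apart. The log2 changes, hepcidin minus PBS, ran from -0.07 for Slc25a37 to 0.11 for Cpox, with 5 members higher and 3 lower. The median over the 8 members was 0.01, beside 0.00 over all genes, of which 50.4% were higher with hepcidin. By pair, 7, 4, 4 and 3 of the 8 members were higher in pairs 1 to 4, with medians of 0.11, 0.01, 0.01 and -0.05. The shares and medians of all genes were not computed by pair, so a lean of a whole pair cannot be told apart from one of the members. At an adjusted p of 0.05 over all genes (limma, Benjamini-Hochberg), 0 of 8 members were called, against 0% of all genes. When limma took the replicate number as a block, 0 of 8 were called against 0.00416%, which is 1 gene. At an unadjusted p under 0.05, 0 of 8 members stood against 2.86% of all genes without the block and 0 of 8 against 4.91% with it. The 4 hepcidin and 4 PBS values did not overlap for 0 of 8 members and for 1.88% of all genes. The lowest unadjusted p of a member was 0.436 without and 0.165 with the block in limma. These p-values miss the threshold, which does not show that the levels were equal. The 95% confidence intervals of the 8 changes lay between -0.49 and 0.45 without the block and between -0.29 and 0.29 with it.

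**Figure D1:**
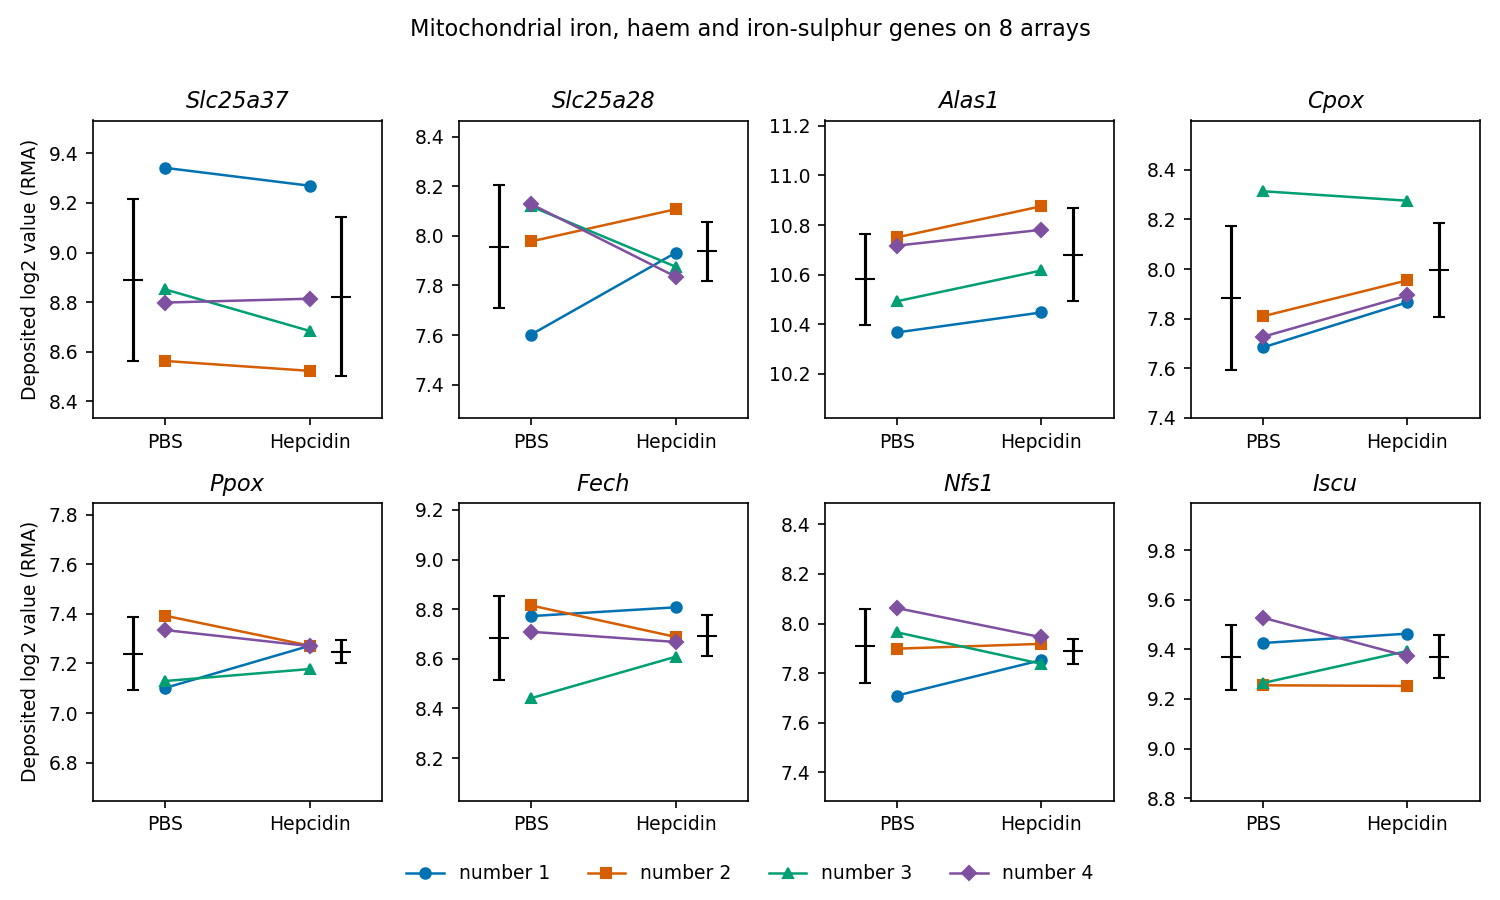
Deposited log2 values (vertical axis, the same span of 1.2 in each panel) of the 8 members with PBS and with hepcidin; coloured lines join the arrays of the same replicate number, and black bars are the mean ± SD of 4 arrays. The lines of Alas1 all climb slightly, from 10.4 to 10.8 with PBS to 10.4 to 10.9 with hepcidin, and those of Slc25a28 cross.

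The mitoferrins bring iron into the matrix, and the pair differ in where they are best known: Slc25a37 (mitoferrin-1) in red cell precursors, Slc25a28 (mitoferrin-2) in other tissues. Slc25a37 (Entrez gene 67712) had log2 values of 9.34, 8.56, 8.85 and 8.80 on PBS arrays 1 to 4 and of 9.27, 8.52, 8.68 and 8.81 on hepcidin arrays 1 to 4. The array numbered 1 was the highest in both groups, the array numbered 2 the lowest, and the groups overlapped over nearly their whole range. The change was -0.07 ± 0.19 (SE, n = 4 in each group), a ratio of 0.96 with a 95% confidence interval from 0.71 to 1.28. The pairs differed by -0.07, -0.04, -0.17 and 0.02, so the SE fell to 0.07 once the number was a block, with an interval from -0.23 to 0.10 on the log2 scale.

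Slc25a28 (246696) stood at 7.60, 7.98, 8.12 and 8.13 with PBS and at 7.93, 8.11, 7.88 and 7.84 with hepcidin, again in the order of the numbers. The hepcidin values lay inside the range of the PBS values. The mean change of -0.02 ± 0.13 (SE) came from pairs that went opposite ways, by 0.33 and 0.13 in pairs 1 and 2 and by -0.24 and -0.29 in pairs 3 and 4. That is the widest spread between pairs among the members, with an SD of 0.30, and the block left the SE at 0.12. Without both arrays numbered 1 the change was -0.14 ± 0.10.

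Alas1, the housekeeping form of the enzyme that joins glycine and succinyl-CoA in the first and rate-limiting step of haem synthesis, was higher with hepcidin in 4 of 4 pairs, by a small amount. Its log2 values (11655) were 10.37, 10.75, 10.49 and 10.72 with PBS and 10.45, 10.88, 10.62 and 10.78 with hepcidin. The pair differences were 0.08, 0.13, 0.12 and 0.06, against a distance of 0.38 between the lowest and the highest PBS array, and the groups overlapped. The change was 0.10 ± 0.12 (SE), a ratio of 1.07 with a 95% confidence interval from 0.89 to 1.29. With the block the SE was 0.07 and the limma p was 0.186 unadjusted and 0.999 adjusted. Alas1 was 1 of 8 members higher in every pair, where 5.69% of all genes were; 0 of 8 were lower in every pair, where 5.92% of all genes were.

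The start of Alas1 is shown because it is the member with the same direction in every pair and because its promoter is a textbook target of the nuclear respiratory factor NRF-1, which couples haem supply to the respiratory chain. In the RefSeq promoter windows (GRCm38.p6, 250 bases before to 50 after each start), both windows of Alas1 held 2 matches to the NRF-1 core GCGCANGCGC, searched on both strands, with a site that reads the same on both strands counted once. The pair of stretches below, 30 bases each on the minus strand, have the match in capitals. They lie at chr9:106247935-106247964, where the match is on the opposite strand, and at chr9:106247906-106247935.
Alas1 upstream match: gcttcggcgcGCGCGTGCGCgcggcaggcc
Alas1 downstream match: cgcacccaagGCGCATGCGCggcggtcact
Of the 2 annotated starts, the downstream one lies 224 and 195 bases after the beginning of the matches; the upstream one coincides with the beginning of the first match, and the second match begins 29 bases after it. The motif was present in 4.6% of the 32851 windows of 300 bases. Windows were matched for 5 of the 8 members, and those of Slc25a28, Cpox, Ppox and Nfs1 held no match. A match describes letters in this window and is no measure of binding.

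Cpox, which turns coproporphyrinogen into protoporphyrinogen in the intermembrane space, had the largest mean change among the members, and it was within the spread between arrays. Its values (12892) were 7.68, 7.81, 8.31 and 7.73 with PBS and 7.87, 7.95, 8.28 and 7.89 with hepcidin. Both arrays numbered 3 stood above all others, and the groups overlapped. The change was 0.11 ± 0.15 (SE), a ratio of 1.08, and its 95% confidence interval ran from -0.22 to 0.45 on the log2 scale. It was higher in pairs 1, 2 and 4, by 0.18, 0.15 and 0.17, and differed by -0.04 in pair 3. The block brought the SE to 0.07 and the unadjusted p in limma to 0.165. The size depended on the arrays numbered 3: it was 0.26 without the PBS array and 0.02 without the hepcidin array of that number.

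Ppox and Fech, the enzymes of the last 2 steps, showed changes near 0. Ppox, which oxidises protoporphyrinogen to protoporphyrin, had values (19044) of 7.10, 7.39, 7.13 and 7.33 with PBS and 7.27, 7.27, 7.18 and 7.27 with hepcidin. All 4 hepcidin values lay within the PBS range, and the change was 0.01 ± 0.09 (SE). Fech, the ferrochelatase that inserts iron into protoporphyrin and that itself carries an iron-sulphur cluster, stood (14151) at 8.77, 8.82, 8.44 and 8.71 with PBS and at 8.81, 8.69, 8.61 and 8.67 with hepcidin. The PBS array numbered 3 was the lowest of the 8, and the change was 0.01 ± 0.10 (SE). For both enzymes 2 of 4 pairs were higher. The direction of both turned under renewed quantile normalization and under cyclic loess.

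The cluster-building genes also showed no change beyond the spread. Nfs1, the desulfurase that takes sulphur from cysteine, had values (18041) of 7.71, 7.90, 7.96 and 8.06 with PBS and 7.85, 7.92, 7.84 and 7.94 with hepcidin. The hepcidin values sat inside the PBS range, and the pairs differed by 0.14, 0.02, -0.13 and -0.12. The change was -0.02 ± 0.09 (SE), with a 95% confidence interval from -0.22 to 0.18. Iscu, the scaffold on which sulphur and iron are assembled, stood (66383) at 9.43, 9.26, 9.26 and 9.53 with PBS and at 9.46, 9.25, 9.39 and 9.37 with hepcidin. The change was 0.00 ± 0.09 (SE), with an interval from -0.20 to 0.20 and 2 of 4 pairs higher. Its direction turned under cyclic loess.

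**Figure D2:**
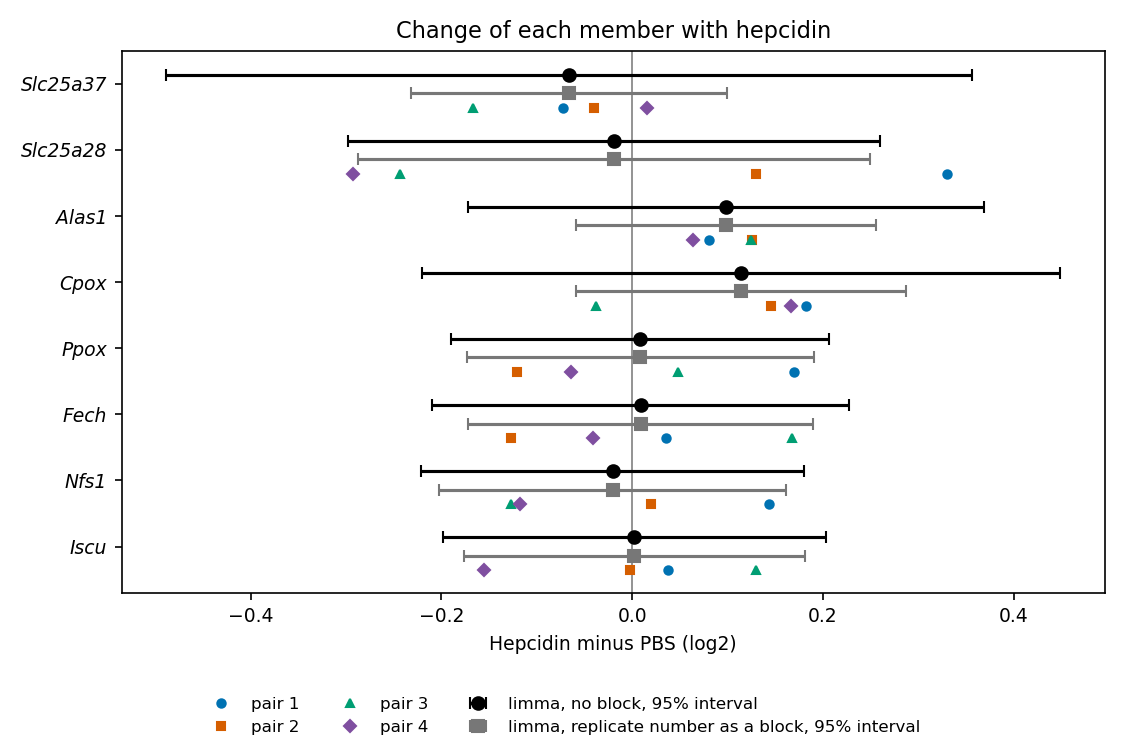
Log2 change of each member, hepcidin minus PBS (horizontal axis); black circles and grey squares give the mean with its 95% confidence interval from limma without and with a block for the replicate number, and small coloured symbols give the 4 pairs. Each interval spans 0; the block shortens those of Slc25a37, Alas1 and Cpox most.

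The SE of Slc25a37, Alas1 and Cpox fell by over 1.5 times with the block, by up to 2.66 times for Slc25a37. That of the other 5 members fell by less. The share of all genes with a fall of over 1.5 times was not computed. In an F test over the 4 numbers in limma, chosen after the data were seen, 1 of 8 members had an adjusted p under 0.05 over all genes, against 5.6% of all genes and 11.9% of the 9274 genes with a mean of at least 6. This member was Slc25a37 (adjusted p 0.0183), whose arrays numbered 1 were above the mean of numbers 2 to 4 by 0.60 with PBS and by 0.60 with hepcidin. The call was lost without both arrays numbered 1, where the adjusted p in limma was 0.382. In that fit 166 of 24011 genes were called, against 984, 1019 and 819 without numbers 2, 3 and 4. For Slc25a37 the call was also lost without number 2, at 0.0672, and the adjusted p was 0.0238 and 0.0308 without numbers 3 and 4. Cpox (0.0655) and Alas1 (0.111) did not pass in limma. The SD over the 8 arrays was 0.30 for Slc25a37 and 0.24 for Cpox, above that of 88.8% and 79% of genes with a mean of at least 6. For the other 6 members it was 0.10 to 0.18.

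Markers of macrophages and of neutrophils and their precursors moved with the same number. The 8 measured macrophage markers averaged 11.3 to 11.5 on numbers 2 to 4 and 10.9 with PBS and 11.0 with hepcidin on number 1, and 5 of the 8 were lower on both arrays numbered 1 than on every other array. Much of that drop was in Fcgr1, an Fc receptor gene, at 8.84 and 9.19 on number 1 and 10.5 to 11.4 elsewhere, and the mean of the other 7 markers was 11.21 and 11.30 on number 1 and 11.43 to 11.54 elsewhere. Cd68 was not lower, at 13.13 and 13.14 on number 1 and 13.05 to 13.16 on the others. Spi1 went opposite ways on number 1. The PBS array held its highest value, 12.02, and the hepcidin array, at 11.80, was the lowest of the 4 hepcidin arrays. Csf1r and Adgre1, which define the lineage, had means over the arrays of 11.8 and 11.4. All 10 neutrophil and precursor markers were measured. Their mean was 4.54 with PBS and 4.37 with hepcidin on number 1 against 5.41 to 5.98 on the other 6 arrays, and 8 of 10 were lower on both arrays numbered 1 than on every other. Between treatments that mean ran from 4.54 to 5.98 with PBS and from 4.37 to 5.94 with hepcidin. The part of cell composition in the level of Slc25a37 was not tested, and in bulk RNA fewer cells of a type cannot be told apart from less RNA per cell.

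Red cell precursors, the cells that make most haem in marrow, left little signal. Of 10 erythroid markers 6 were measured, and their gene means lay between 3.76 and 4.70. Alas2, the red cell form of the first enzyme, stood at 3.68, 3.60, 3.60 and 3.55 with PBS and at 3.80, 3.49, 3.63 and 3.75 with hepcidin. The 13 measured markers of B, T, NK and endothelial cells, used as a gauge of background, had a median of 3.87 and a 90th percentile of 5.72, with Kdr the highest at 7.51. The lowest single value of a member was 7.10, for Ppox. The mean of the 6 erythroid markers lay between 4.11 and 4.22 with PBS and between 4.11 and 4.18 with hepcidin. On number 1 it was 4.21 with PBS and 4.12 with hepcidin. The mean of the 13 background markers was 4.46 with PBS and 4.46 with hepcidin on number 1, and 4.29 to 4.44 on the other arrays.

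**Figure D3:**
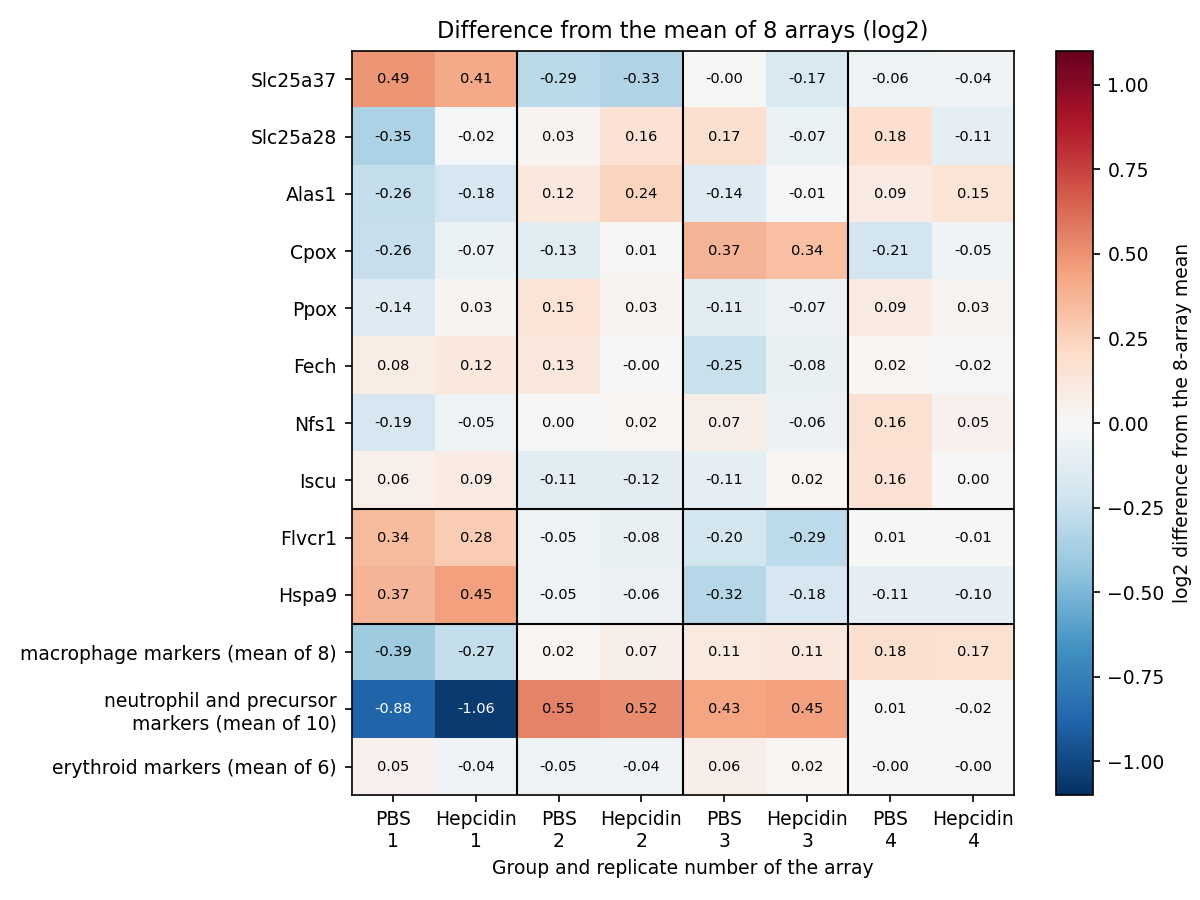
Difference of each array from the 8-array mean on the log2 scale, as colour and printed value, for the members (top block), Flvcr1 and Hspa9 (middle) and the means of 3 marker lists (bottom); columns are arrays, ordered by replicate number. Slc25a37, Flvcr1 and Hspa9 are high on both arrays numbered 1, where the macrophage and the neutrophil and precursor markers are low, and Cpox is high on both numbered 3.

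By the rule for similar patterns, the genes closest to Slc25a37 over the 8 arrays were Mga, Atp8b4 and Atf5. Their mean-centred log2 values differed from those of Slc25a37 by a root mean square of 0.07 for Mga and 0.08 each for Atp8b4 and Atf5. All 3 were highest on the arrays numbered 1, as Atf5 shows with 8.28 and 8.13 there and 7.31 to 7.57 elsewhere. For Cpox the closest were Lin37 at 0.06, and Ptpn7 and Tspyl1 at 0.07 each, all with their highest values on the arrays numbered 3. These 6 were picked for their likeness among 8919 genes.

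The changes of the other genes of these pathways were small too. Of 45 further genes in 4 lists, 40 were measured, 27 of them higher and 13 lower with hepcidin, with changes from -0.12 to 0.19 and a median of 0.03. More of the 40 were higher in pair 1 than in pair 4. The lean was not tested and was not set beside all genes by pair. None of the 40 passed over all genes in limma with or without the block. Their SEs below come from the fit without the block, unless the block is named, and so include differences between the numbers. In either fit 0 of 40 had an unadjusted p under 0.05, beside the shares of all genes given above. In 4 of 40 genes all pairs were higher, where 5.69% of all genes were, and in 1 of 40 all were lower, where 5.92% were. The groups did not overlap for 0 of 40, against 1.88% of all genes.

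Of the 11 other haem synthesis genes 6 were higher and 5 lower, with a median change of 0.03. The smallest unadjusted p belonged to Abcb6, a porphyrin transporter, at 7.17 ± 0.13 with PBS and 7.33 ± 0.19 with hepcidin (SD, n = 4), a change of 0.16 ± 0.11 (SE). It was higher by 0.43 and 0.27 in pairs 1 and 2 and differed by -0.02 in each of the others. Uros, the uroporphyrinogen III synthase, changed by -0.08 ± 0.09 (SE). Flvcr1, which encodes a haem exporter, was lower in 4 of 4 pairs, by 0.01 to 0.08. Abcb10 was higher in 4 of 4, with 3 of its differences at 0.01 or less. Both were singled out after their values were seen.

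Of the 14 other genes of mitochondrial cluster assembly 10 were higher and 4 lower, with a median of 0.04. Lyrm4, the small partner protein that stabilises the desulfurase Nfs1, had 7.93, 7.94, 7.77 and 7.78 with PBS and 8.11, 8.03, 7.92 and 7.87 with hepcidin. It was higher in each pair, by 0.18, 0.10, 0.15 and 0.09, and the groups overlapped. The change was 0.13 ± 0.09 (SE), with an interval from -0.06 to 0.32, and with the block from -0.03 to 0.29 (unadjusted p 0.097 in limma, the lowest of the 48 genes). Isca1, which acts in the late steps that make 4Fe-4S clusters, changed by -0.12 ± 0.11 (SE). Bola3, singled out after its values were seen, was higher in every pair by 0.06 to 0.15. Hspa9, the mitochondrial chaperone that helps release clusters from the scaffold, changed by 0.05 ± 0.17 (SE). With the block its SE was 0.07, with an interval from -0.11 to 0.21. Hspa9 differed between numbers in limma's F test (adjusted p 0.0267), with arrays numbered 1 above the others by 0.53 with PBS and 0.57 with hepcidin. Without both arrays numbered 1, where 166 of 24011 genes were called, that adjusted p was 0.529, and it was 0.0717 without number 3. The call held in limma without numbers 2 and 4, at adjusted p-values of 0.0389 and 0.0468.

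Of the 11 genes of cytosolic cluster assembly and export 8 were higher and 3 lower, with a median of 0.06. Glrx3, a cluster-carrying glutaredoxin, changed by 0.19 ± 0.13 (SE) from a PBS mean of 5.09, a level within that of the background markers, and pair 1 differed by -0.11. Ciao3, a factor of the cytosolic assembly machinery, changed by 0.09 ± 0.08 (SE). Ciao2a, singled out after its values were seen, was higher in 4 of 4 pairs by up to 0.13. Of the 4 other mitochondrial iron proteins 3 were higher. Ftmt, mitochondrial ferritin, stood at 4.59 ± 0.20 with PBS and 4.68 ± 0.14 with hepcidin (SD, n = 4), within the level of the background markers, and Cisd2, an iron-sulphur protein of the endoplasmic reticulum and outer mitochondrial membrane, changed by -0.03 ± 0.09 (SE).

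**Figure D4:**
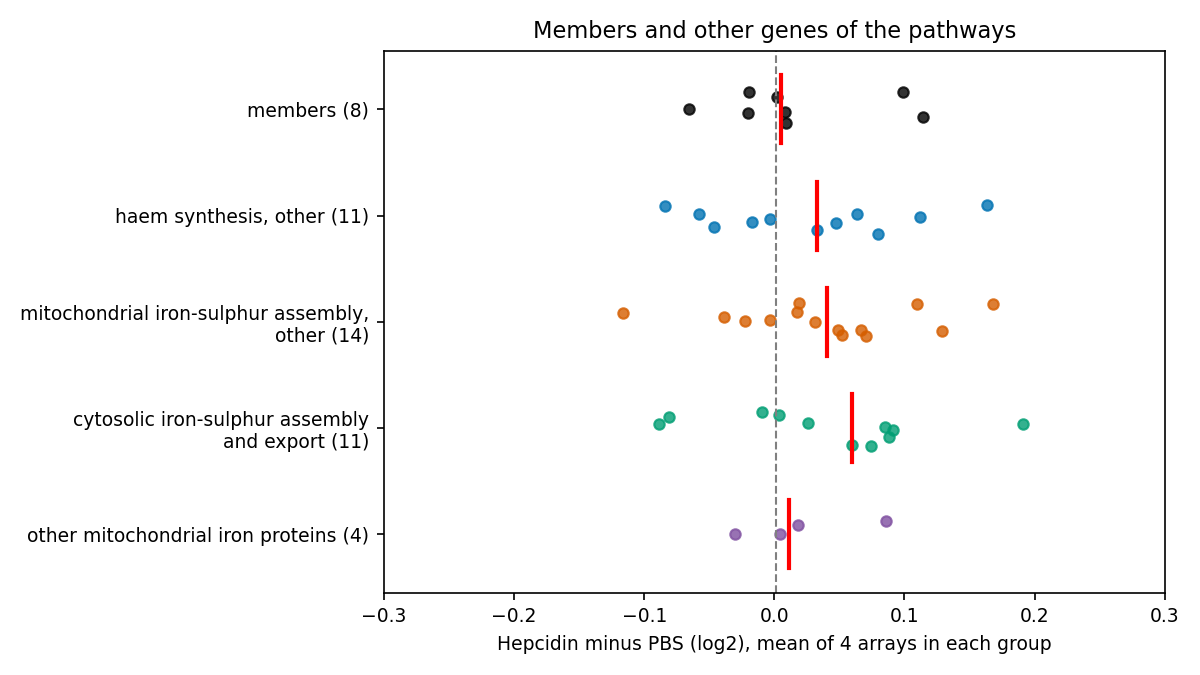
Log2 change, hepcidin minus PBS (horizontal axis), of the 8 members and of the measured genes of the other pathway lists, 1 dot per gene; red bars are list medians and the dashed line is the median of all genes, 0.00. Every dot lies between -0.12 and 0.19.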

How the data were processed

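Total RNA of 8 samples was hybridised to Affymetrix whole-transcript arrays. Per the submitters' processing notes, the authors made the deposited log2 values with RMA and with affy 1.36.1. Probe set definition and genome build: not given in the sources used here. RMA compresses ratios of dim genes. Values were used as deposited. Of 24973 probe sets, 24015 had 1 gene symbol; the brightest was kept for 4 symbols, which left 24011 genes. Groups and numbers came from the sample titles. All genes were fitted with limma 3.58.1 in R 4.3.3 (lmFit, eBayes, no block), two-sided, with Benjamini-Hochberg adjustment over all genes. The fit was tested on simulated data that held no effect of the replicate number. That test does not cover the pairing of the real arrays.

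Equal numbers paired the arrays: deviations from the group mean correlated across genes at 0.34 to 0.55 for same and -0.36 to 0.12 for different numbers. Each same-number value was above the bound of 0.1, and so was the highest different-number value, 0.12. The ranges of same and different numbers did not overlap. What a number stands for is unstated. No 2 arrays held identical values.

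Members and lists were chosen with earlier results of these data known. Of 98 list entries, 85 were measured, 4 under newer symbols; the others were not analysed here. Named were the 8 members and, per further list, called genes or else the 2 of lowest unadjusted p; and, for the 2 members of largest SD, the 3 genes with a mean of at least 6 and the smallest root mean square difference. The number of arrays limits the precision. Tables and figures used Python 3.11.15, pandas 2.3.3 and matplotlib 3.10.9.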

Additional observations from a re-analysis of the deposited data

Results flagged for a closer look

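Among 32 groups of 4 arrays, those of the 8 members and of the 8 pathway genes named by rule, 2 had a sample far from the others; chance alone flags about 1 in 20 groups. For Ppox with hepcidin, array 3 stood at 7.18 and the other 3 at 7.27, a gap of 0.981 of the group's range, which is itself only 0.09 on the log2 scale. For Isca1 with hepcidin, array 3 stood at 7.88 and the others at 7.72 to 7.74, a gap of 0.910 of the range; the PBS array numbered 3 was the highest of its group too, at 8.20.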

How the results depend on the processing

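No member passed an adjusted p of 0.05 in limma under any of 19 other settings, and 0 had an unadjusted p under 0.05; the lowest was 0.0523, for Cpox without the PBS array numbered 3. Over all genes the count, 0 in the report, was 3 with a mean of at least 6, 1 with the replicate block, 5 with it as a random term, 1 with the block and no arrays numbered 1, and 0 to 2 without 1 array. The replicate block changed no member's call. The members' median ran from -0.03 to 0.04. Of 152 member values, 125 kept their direction, among them all of Alas1 (0.03 to 0.18) and Cpox, and 27 turned, to values of at most 0.09 in size. Some of the 125 could not turn, since their setting altered only the variance or the genes tested. These settings were the filter on the mean, trend and robust options, the block as a fixed or random term, and all probe sets. Alas1 stayed at 0.0985 in each of them. Under quantile normalization Fech was at -0.0014 and Ppox at -0.0169. Under cyclic loess Fech was at -0.0031, Ppox at -0.0067 and Iscu at -0.0075, and with array weights Ppox at -0.0134. With no arrays numbered 1, with or without the block, Fech was at -0.0002, Ppox at -0.0457 and Iscu at -0.0095. Without 1 array, Slc25a37 ran from -0.2149 to 0.0850, Slc25a28 from -0.1374 to 0.0382, Fech from -0.0725 to 0.0522, Ppox from -0.0379 to 0.0593, Iscu from -0.0354 to 0.0554 and Nfs1 from -0.0870 to 0.0306. The cause of these turns was not tested.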

Other observations

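The 4 values of a member were less spread with hepcidin than with PBS for 7 of 8 members, Alas1 being the exception. The median SD of the members was 0.18 with PBS and 0.10 with hepcidin. Among the genes with a mean of at least 6, 64.4% had the larger SD with PBS, with medians of 0.17 and 0.14. Without the arrays numbered 1 the counts were 7 of 8 members and 57.6% of those genes. The exception was then Slc25a28, at 7.98, 8.12 and 8.13 with PBS and 8.11, 7.88 and 7.84 with hepcidin. Alas1 joined the 7, which were thus not the same members. Over all 4 arrays, Slc25a37 counted on SDs of only 0.33 with PBS and 0.32 with hepcidin. Nfs1 had an SD of 0.15 with PBS and 0.05 with hepcidin, and Ppox 0.15 and 0.05. The difference in spread was noticed in the data and has no test.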
